A study of Mus musculus with 12 samples.

Results

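The genes described here are 34 members of the unfolded protein response and the protein folding machinery of the endoplasmic reticulum (ER). They were chosen by name: chaperones and co-chaperones, disulfide isomerases, translocation components, degradation factors, the stress sensors with Xbp1, and the PERK arm of the integrated stress response. All 34 were among the 13951 genes with a value in every library, and all 34 passed the filter on low values, as did 12385 genes in all. The rule uses no measured value, but the members were chosen with earlier results of these data known.

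The ER folds secreted and membrane proteins, and its resident chaperone BiP, encoded by Hspa5, holds the stress sensors inactive until unfolded protein accumulates. IRE1 (Ern1) then splices Xbp1 mRNA, ATF6 is cut to release a transcription factor, and PERK (Eif2ak3) phosphorylates eIF2α, which favours translation of Atf4. Fibroblasts carry a heavy folding load because they secrete collagen. Toll-like receptor 4, which senses lipopolysaccharide (LPS), signals partly through the adaptor MyD88, and Toll-like receptor signalling is known in macrophages to engage Xbp1.

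The cells were primary mesenchymal cells of the mouse small intestine, strain C57/Bl6, cultured to passage 3 and sorted for GFP. There were 4 groups of 3 libraries each: wt untreated, wt LPS, MyD88ko untreated and MyD88ko LPS, the LPS being from E. coli at 2 µg/ml for 6 hours after overnight serum starvation. The labels do not say whether untreated cells were starved too, and if they were not, LPS and starvation cannot be told apart in the LPS comparisons. The knockout carries the genotype label ColVIcre-MyD88F/F-RosamTmG, in which Cre is driven by a collagen VI promoter, floxed MyD88 is its target and RosamTmG is a fluorescent reporter. The wt label is MyD88F/F-RosamTmG, with no Cre named, whereas the series' design text calls the wt cells ColVIcre+. The floxed MyD88 and the reporter are therefore common to all groups by label, and whether the wt cells carried Cre cannot be read from the labels. No label says whether replicates came from separate animals, so p-values measure the spread between these samples, which may be technical. Each library was made from the 3′ ends of mRNA (QuantSeq), so 1 value per gene is given and spliced Xbp1 is not separated from unspliced.

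Values are the authors' normalized counts, rounded to whole numbers, with library totals of 3598095 to 4319615. Raw depth is therefore unknown. Myd88 itself was 98 to 213 in the 6 wt libraries and 5 to 24 in the 6 MyD88ko libraries; whether its 3′ end lies in the deleted stretch is not given in the sources used here. LPS raised Nfkbia, an inhibitor of NF-κB that NF-κB itself induces, 6.14-fold in wt and 2.20-fold in MyD88ko cells. The chemokine gene Cxcl5 rose 18.3-fold in wt cells, from untreated values of 155 to 464. In MyD88ko cells it rose 35.9-fold, from untreated values of 3 to 12. For neither gene were the 2 responses shown to differ (limma, adjusted p = 0.208 for Nfkbia and 0.651 for Cxcl5). All 11 mesenchymal markers were listed, with summed values of 43643 to 141849. Epithelial markers (4 of 12 listed in all libraries) summed to 390, 8 and 194 in wt untreated libraries 1 to 3, and to 4 to 52 in the other 9. Hepatocyte markers (3 of 5 listed) summed to 103 to 256 in untreated and 3 to 19 in LPS libraries, and their part in the LPS differences was not tested. Endothelial markers were not listed (0 of 4). Every untreated library bears a lower library number than every LPS library, so the treatment and the order of the library numbers cannot be told apart. In bulk RNA, a change in the share of a cell type and a change per cell cannot be told apart either.

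The best known DNA sequence of this gene set is the ER stress element, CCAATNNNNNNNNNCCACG, which ATF6 and XBP1 bind together with NF-Y. It is shown here because it is what the promoters of the major chaperones have in common, whether or not their mRNA moved with LPS. Promoter windows of 300 bases (250 before to 50 after the annotated start, RefSeq, build GRCm38.p6, the mm10 assembly) were found for 29 of the 34 members. None was found for Hyou1, Manf, Derl1, Atf6 and Ppp1r15b. The element was present on either strand in 8 of these 29 (27.6%), against 39 of all 32851 windows (0.119%). Members are counted as genes, with 30 windows between them, and the background as windows. Because the element is known from this gene set, its higher share among the members is not a result of these data. The related ER stress element II (ATTGG, any base, CCACG) was present in 2 members (6.90%) against 12 of all windows (0.0365%). The 8-letter box TGACGTGG and the ATF4-type element TGATGNAAT were in 0 of the 29 members' windows, against 0.676% and 0.965% of all windows. The sites are printed in the orientation in which they match, with the element in capitals and 8 flanking bases on either side:
Hspa5, chr2:34772017-34772051 (+): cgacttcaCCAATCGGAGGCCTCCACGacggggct
Hsp90b1 upstream, chr10:86705630-86705664 (-): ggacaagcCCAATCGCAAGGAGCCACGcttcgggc
Hsp90b1 downstream, chr10:86705525-86705559 (+): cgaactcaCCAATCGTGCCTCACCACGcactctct
Calr, chr8:84847067-84847101 (+): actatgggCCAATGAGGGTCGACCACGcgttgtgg
Canx, chr11:50325792-50325826 (-): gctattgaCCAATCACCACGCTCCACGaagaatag
Dnajc3, chr14:118937819-118937853 (+): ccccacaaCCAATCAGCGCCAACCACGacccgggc
Creld2, chr15:88819512-88819546 (-): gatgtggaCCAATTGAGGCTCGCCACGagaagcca
Pdia6, chr12:17266483-17266517 (+): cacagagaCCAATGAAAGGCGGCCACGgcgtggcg
Syvn1, chr19:6046524-6046558 (+): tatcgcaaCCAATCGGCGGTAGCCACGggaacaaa
Herpud1, element II, chr8:94386369-94386395 (+): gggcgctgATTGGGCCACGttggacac
Dnajb11, element II, chr16:22857844-22857870 (+): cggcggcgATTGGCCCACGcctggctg

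Counting exact matches only, Hsp90b1 was the only member with 2 elements, 1 on each strand. Near matches were not counted: the Hspa5 window also holds ccaatcagcggcctccaac, which differs from the element by 2 bases. The whole windows of Hspa5 and Hsp90b1 are given because these chaperones share the element and yet had different values after LPS, as described below. Elements are in capitals, written on the strand of the gene, so that the second Hsp90b1 element reads as its reverse complement:
Hspa5, chr2:34771840-34772139 (+): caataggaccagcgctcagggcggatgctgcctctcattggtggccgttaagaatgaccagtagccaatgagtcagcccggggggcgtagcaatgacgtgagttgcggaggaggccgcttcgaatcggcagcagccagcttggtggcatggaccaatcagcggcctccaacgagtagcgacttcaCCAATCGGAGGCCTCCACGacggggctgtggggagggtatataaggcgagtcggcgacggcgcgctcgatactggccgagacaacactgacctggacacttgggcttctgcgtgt
Hsp90b1, chr10:86705395-86705694 (-): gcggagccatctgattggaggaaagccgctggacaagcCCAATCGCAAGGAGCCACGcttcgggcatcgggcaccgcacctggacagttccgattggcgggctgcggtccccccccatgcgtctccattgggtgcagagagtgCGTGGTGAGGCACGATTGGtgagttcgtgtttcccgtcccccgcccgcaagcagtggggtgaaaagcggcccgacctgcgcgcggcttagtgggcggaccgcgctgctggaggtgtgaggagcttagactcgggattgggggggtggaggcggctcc

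**Figure D1:**
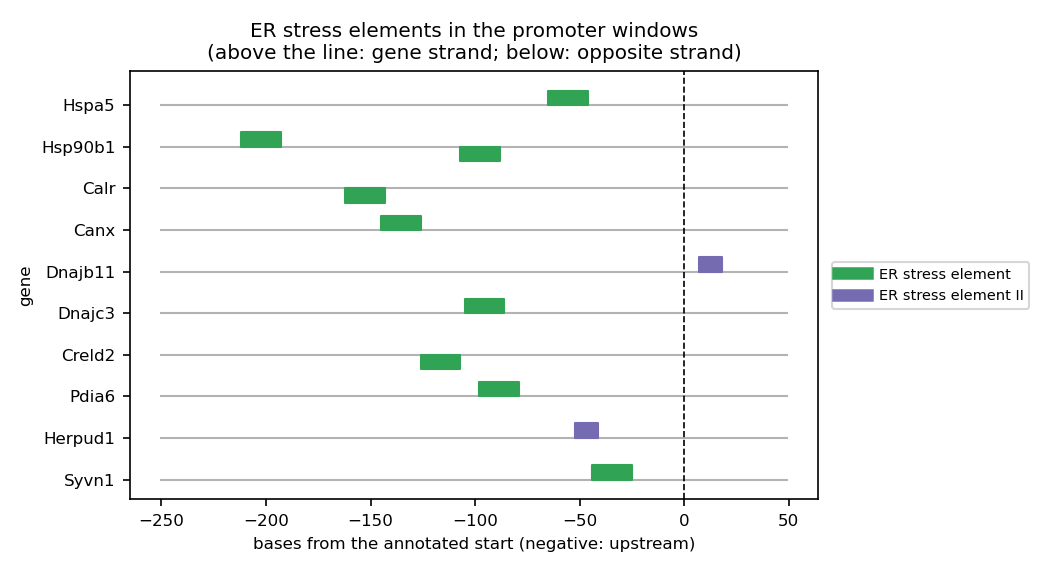
Position of each exact match to the ER stress element and ER stress element II (boxes) in the promoter windows of the 10 members that hold one, in bases from the annotated start. Boxes above the line lie on the strand of the gene and boxes below it on the opposite strand; 9 members hold theirs before the start and Dnajb11 after it.

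In wt cells LPS changed 7 of the 34 members (limma, Benjamini-Hochberg over all 12385 genes, called at an adjusted p under 0.05). Manf and Ppp1r15a rose, and Hsp90b1, Dnajb9, Sec61b, Xbp1 and Atf6 fell. That is 20.6% of the members, near the 19.2% of all tested genes called in this comparison. The median log2 difference of the members was 0.16, against 0.0127 over all genes. In MyD88ko cells 1 member of 34 was called, Sec61b, which fell. Its 2.94% stands beside 5.98% of all genes, and the members' median was 0.03 against 0.00359.

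**Figure D2:**
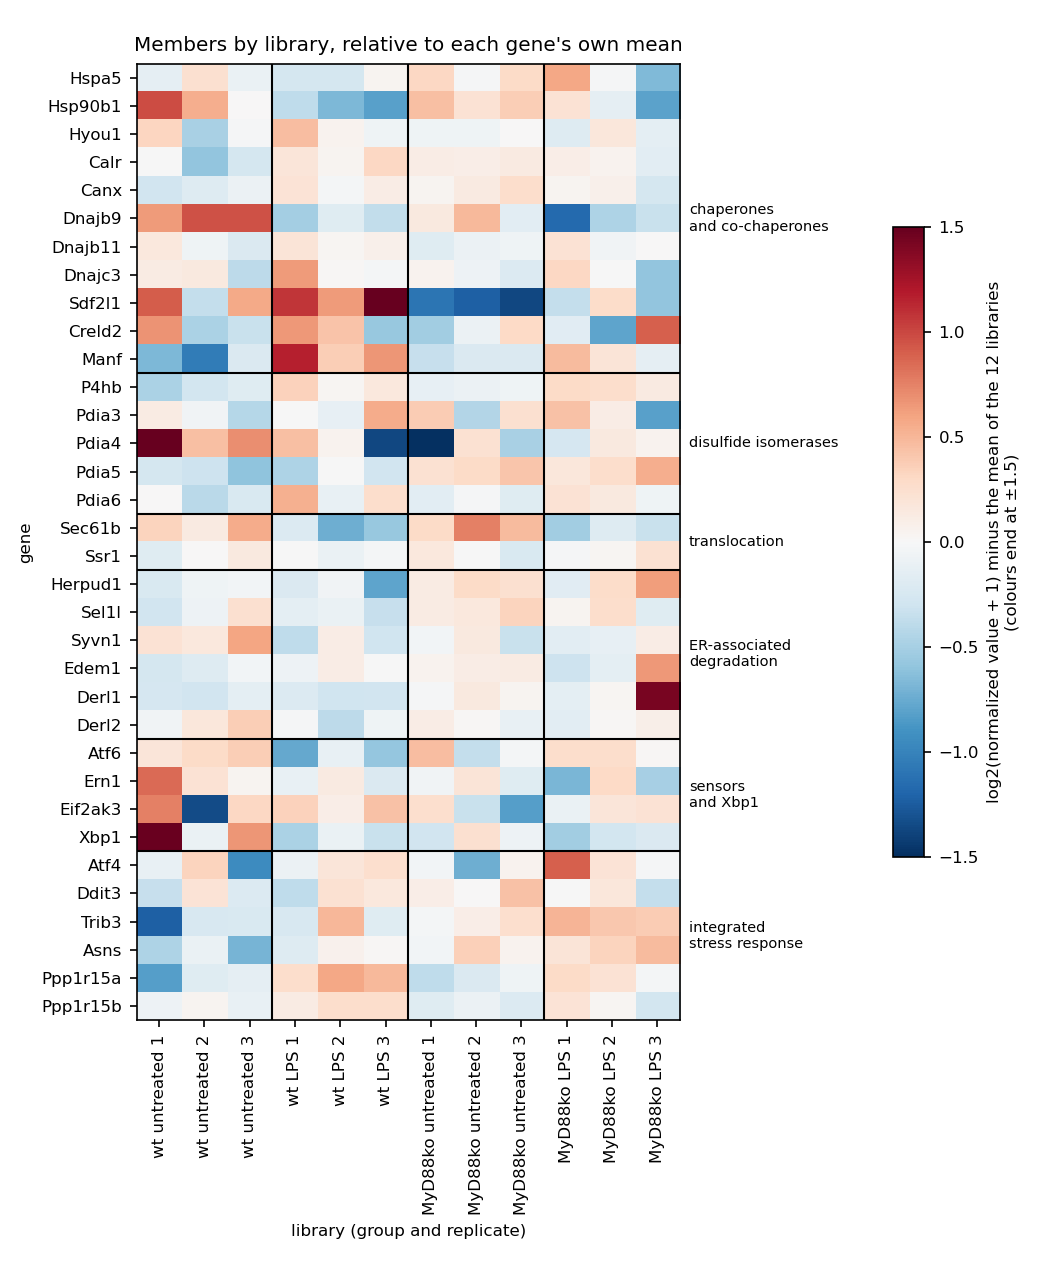
Each cell is log2(normalized value + 1) of 1 member in 1 library minus that gene's mean over the 12 libraries, with members in rows by role and libraries in columns by group. Most rows stay pale; Dnajb9 is reddest in wt untreated libraries, Manf in wt LPS libraries, Sdf2l1 blue in MyD88ko untreated libraries, and Xbp1 red in wt untreated libraries 1 and 3.

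Among the chaperones, Hspa5 (BiP, chr2:34771970-34777547) in wt cells was 12439, 16138 and 12785 untreated and 11410, 11462 and 14157 with LPS. In MyD88ko cells it was 16931, 13590 and 16717 untreated and 20539, 13521 and 8651 with LPS. The groups overlapped in every comparison, and the widest spread was within MyD88ko LPS. The log2 difference with LPS was -0.16 ± 0.25 (SE; adjusted p = 0.710) in wt cells, with a 95% interval of -0.68 to 0.36. It was -0.23 ± 0.25 (adjusted p = 0.654) in MyD88ko cells, with an interval of -0.75 to 0.30. A 2-fold change of Hspa5 in either direction lies outside both intervals. Hspa5 alone accounted for 0.215% to 0.479% of the summed values of a library, and the 34 members for 0.793% to 1.11%.

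Hsp90b1 (GRP94, chr10:86690209-86705509), the ER member of the HSP90 family and the chaperone that Toll-like receptors need to fold, fell with LPS in wt cells. It was 4248, 3145 and 2163 untreated and 1646, 1345 and 1222 with LPS, so the groups did not overlap although the untreated libraries spread widely. The log2 difference was -1.14 ± 0.26, which is 2.20-fold lower (adjusted p = 0.00412). In MyD88ko cells Hsp90b1 was 2947, 2494 and 2767 untreated and 2501, 1956 and 1233 with LPS. The single LPS value of 2501 lay above the lowest untreated value, and the difference of -0.58 ± 0.26 was not called (adjusted p = 0.198). The difference between the 2 responses, MyD88ko minus wt, was 0.55 ± 0.37 (adjusted p = 0.670), so the responses are not shown to differ.

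Dnajb9 (ERdj4, chr12:44205897-44210068), a BiP co-chaperone and a known XBP1 target that helps keep IRE1 inactive, also fell in wt cells. It was 374, 466 and 464 untreated, and 188 ± 21.7 (SD, n = 3) with LPS, where the highest library was at 211. Every LPS library was below every untreated one, and the fall was 2.30-fold, with a log2 difference of -1.20 ± 0.24 (adjusted p = 0.00174). In MyD88ko cells the values were 265, 335 and 214 untreated and 106, 174 and 189 with LPS. These groups did not overlap either, and the difference of -0.81 ± 0.24 just missed the threshold (adjusted p = 0.0547). Without MyD88ko LPS library 3 it was -0.97 (adjusted p = 0.0300).

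Manf (chr9:106838312-106891979), a small secreted protein induced by ER stress, had the lowest p among the members. Without LPS, wt libraries had 362, 280 and 497, and with LPS 1306, 747 and 916, with no overlap. The rise was 2.60-fold, a log2 difference of 1.38 ± 0.24 (adjusted p = 0.000543). In MyD88ko cells Manf was 455, 501 and 498 untreated and 807, 665 and 528 with LPS. Again all LPS values were the higher ones, but by 0.44 ± 0.24 (adjusted p = 0.315). The difference between the responses was -0.94 ± 0.34, with an unadjusted p of 0.0129 and an adjusted p of 0.394 over all genes.

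The authors' deposited table of the same wt comparison gives Manf an adjusted p of 0.0173. In the authors' deposited table Dnajb9 has 0.0884, Hsp90b1 0.0887 and Xbp1 0.104. For Sec61b the authors' deposited table gives 0.329, for Ppp1r15a 0.487 and for Atf6 0.512. Manf was thus the only member under 0.05 by that table.

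The other 7 chaperones and co-chaperones were not called in any comparison. Calr and Canx, the lectin chaperones of glycoproteins, were higher with LPS in wt cells without overlap, Calr at 2450, 1632 and 2046 against 2776, 2525 and 3037. The log2 difference of Calr was 0.46 ± 0.19 (adjusted p = 0.101) and that of Canx 0.28 ± 0.18 (adjusted p = 0.312). In MyD88ko cells the same differences were -0.12 and -0.19. Hyou1 (a large HSP70-type chaperone), Dnajb11 and Dnajc3 (BiP co-chaperones) and Creld2 differed by 0.14 to 0.25 in wt and by -0.02 to 0.17 in MyD88ko cells. Sdf2l1, a component of BiP complexes, is described with the genotypes.

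**Figure D3:**
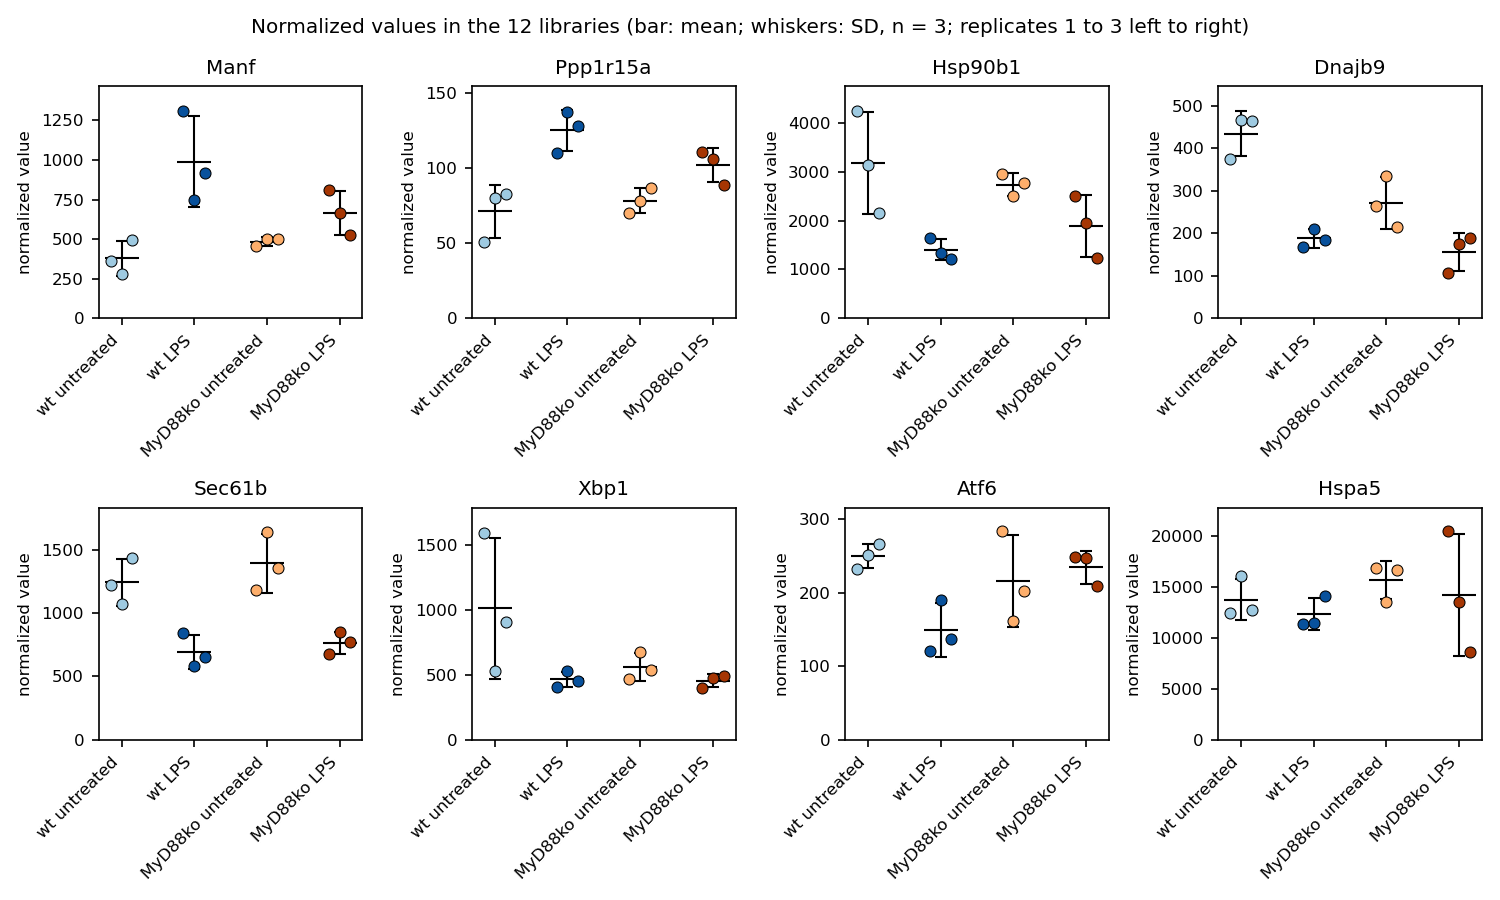
Normalized value of 8 members (vertical axes from 0) in the 4 groups; each point is a library, replicates 1 to 3 from left to right, the bar is the mean and the whiskers the SD (n = 3). Manf and Ppp1r15a lie higher, and Hsp90b1, Dnajb9, Sec61b, Xbp1 and Atf6 lower, in wt LPS than in wt untreated libraries, while the groups of Hspa5 overlap.

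Of the 5 disulfide isomerases, which form and rearrange disulfide bonds, 0 were called in any comparison. P4hb (PDI, also the β subunit of collagen prolyl hydroxylase) was 1927, 2210 and 2365 in wt cells without LPS and 3417, 2738 and 3001 with it. MyD88ko cells had 2467, 2525 and 2558 without LPS and 3264, 3226 and 2956 with it. LPS values were above untreated values in both genotypes, by 0.49 ± 0.18 (adjusted p = 0.0601) in wt and 0.32 ± 0.18 (adjusted p = 0.317) in MyD88ko cells. Pdia6 differed by 0.44 (adjusted p = 0.141) in wt cells, Pdia3 by 0.26 and Pdia5 by 0.14. Pdia4 had the largest within-group SD of all members, 0.84 on the log2 scale. Its values were 60, 20 and 24 in wt untreated libraries and 3 to 20 in the other 9, with an unadjusted p of 0.044 for LPS in wt cells (adjusted p = 0.144).

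Sec61b (chr4:47474658-47483242), the β subunit of the Sec61 channel that passes nascent proteins into the ER, was the only member called in both genotypes. In wt cells it was 1224, 1068 and 1433 untreated and 845, 584 and 656 with LPS. In MyD88ko cells it was 1184, 1643 and 1352 untreated and 675, 848 and 772 with LPS. No LPS library reached an untreated one in either genotype. The fall was 1.79-fold in wt cells, -0.84 ± 0.21 (adjusted p = 0.00692), and 1.81-fold in MyD88ko cells, -0.86 ± 0.21 (adjusted p = 0.0165). The difference between the responses was -0.01, with a 95% interval of -0.62 to 0.60. Ssr1, a subunit of the translocon-associated complex, differed by -0.04 in wt and 0.11 in MyD88ko cells. The call of Sec61b in MyD88ko cells was lost without MyD88ko untreated library 2 (adjusted p = 0.101), without untreated library 3 (0.0563) and without LPS library 1 (0.0581). By the authors' deposited DESeq results it was under 0.05 in neither genotype (adjusted p = 0.329 in wt and 0.62 in MyD88ko cells).

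The 6 genes of ER-associated degradation, which returns misfolded proteins to the cytosol for destruction, had 0 calls. In wt cells 5 of the 6 log2 differences were negative, with a median of -0.20, while 20 of all 34 members had positive ones. Syvn1 (HRD1), the ubiquitin ligase of the pathway, had the largest at -0.51 ± 0.22 (adjusted p = 0.109), with 318, 305 and 412 untreated against 209, 296 and 222 with LPS. Its partner Sel1l differed by -0.15, and Herpud1, which organizes the complex, by -0.24. Edem1, a lectin that picks out glycoproteins, differed by 0.17, and the channel proteins Derl1 and Derl2 by -0.03 and -0.32. Derl1 showed 1 outlying library: 598 to 662 in the 6 wt libraries, 661 to 810 in 5 MyD88ko libraries, and 1968 in MyD88ko LPS library 3. That library also had the lowest Hspa5 (8651) and Pdia3 (329) of all 12, and was the lowest of its group for 17 of 34 members and the highest for 12.

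Among the sensors and Xbp1, the mRNA of Atf6 and Xbp1 fell with LPS in wt cells. Atf6 (chr1:170704674-170867771) was 233, 252 and 266 untreated and 121, 190 and 137 with LPS. The fall was 1.70-fold, -0.77 ± 0.24 (adjusted p = 0.0301), with no overlap. In MyD88ko cells Atf6 was 284, 161 and 202 untreated and 248, 247 and 209 with LPS, a difference of 0.16 ± 0.24 (adjusted p = 0.764). The difference between the responses was 0.92 ± 0.34, with an unadjusted p of 0.0132 and an adjusted p of 0.394. The Atf6 call in wt cells was lost when any 1 wt untreated library or wt LPS library 1 or 3 was left out (adjusted p between 0.0531 and 0.131).

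Xbp1 (chr11:5520659-5525893) in wt cells was 1597, 533 and 906 untreated and 411, 531 and 454 with LPS. The groups are separated by 2 units between untreated library 2 and LPS library 2, and the difference comes mainly from untreated libraries 1 and 3. The log2 difference was -0.99 ± 0.29, 1.98-fold lower (adjusted p = 0.0201). In MyD88ko cells Xbp1 was 467, 674 and 541 untreated and 397, 473 and 491 with LPS, a difference of -0.29 ± 0.29 (adjusted p = 0.604). The wt libraries high in Xbp1 are also those high in the epithelial markers Cldn4 and Krt19. Cldn4 was 213, 7 and 122 in wt untreated libraries 1 to 3, and at most 6 in the other 9 libraries. Krt19 was at least 62 in wt untreated libraries 1 and 3, 0 in library 2 and at most 20 in the other 9. Epcam was 11, 1 and 10 in wt untreated libraries, but also 10 in wt LPS library 2. Muc2 did not follow this pattern, at 0 in wt untreated libraries and 16, 32 and 11 in wt LPS libraries. Mesenchymal markers summed to 52110, 101308 and 43643 in wt untreated libraries 1 to 3, libraries 1 and 3 being the 2 lowest of all 12. Col1a1 and Col1a2 made up most of that sum (27011 and 10255 in library 1). Within the group every mesenchymal marker but Pdgfrb was lower in libraries 1 and 3 than in library 2. Pdgfrb was 883, 1135 and 1443, the last being the highest of all 12. Vim, at 4763 and 4498 in libraries 1 and 3, was lower in wt LPS library 2 (3907). The part of these markers in the Xbp1 values was not tested. Without libraries 1 and 3 the Xbp1 difference was -0.20 (adjusted p = 0.746), without library 1 alone -0.59 (adjusted p = 0.138), and without wt LPS library 1 or 3 it was -0.90 (0.0839) or -0.97 (0.0585).

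Ern1 (IRE1, chr11:106394650-106487852) in wt cells was 83, 53 and 47 untreated and 42, 50 and 39 with LPS. MyD88ko cells had 44, 52 and 40 untreated and 28, 56 and 32 with LPS. Its differences with LPS were -0.44 ± 0.34 (adjusted p = 0.405) and -0.28 ± 0.34 (adjusted p = 0.689), with overlapping groups. Eif2ak3 (PERK, chr6:70844515-70905245) in wt cells was 59, 13 and 43 untreated and 44, 37 and 47 with LPS. MyD88ko cells had 41, 27 and 19 untreated and 32, 39 and 40 with LPS. Its differences were 0.38 ± 0.45 (adjusted p = 0.604) and 0.40 ± 0.45 (adjusted p = 0.663), and a 2-fold rise lies inside both intervals.

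In the integrated stress response, Ppp1r15a (GADD34, chr7:45522916-45526268), which directs dephosphorylation of eIF2α and so ends the response, rose in wt cells. It was 51, 80 and 83 untreated and 110, 137 and 128 with LPS, without overlap. The rise was 1.77-fold, 0.83 ± 0.26 (adjusted p = 0.0297). In MyD88ko cells it was 70, 78 and 87 untreated and 111, 106 and 89 with LPS, also without overlap, and the difference of 0.38 ± 0.26 was not called (adjusted p = 0.431). The wt call was lost without wt untreated library 1 (adjusted p = 0.148), wt LPS library 2 (0.0913) or wt LPS library 3 (0.0770). Ppp1r15b, its constitutive counterpart, differed by 0.27 (adjusted p = 0.381) in wt cells.

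Atf4 (chr15:80255184-80257540), the transcription factor of this arm, in wt cells was 2500, 3395 and 1399 untreated and 2548, 3071 and 3208 with LPS. MyD88ko cells had 2632, 1629 and 2794 untreated and 5018, 3106 and 2669 with LPS. The groups overlapped, with differences of 0.36 ± 0.30 (adjusted p = 0.439) and 0.60 ± 0.30 (adjusted p = 0.261). ATF4 is regulated mainly in translation, which mRNA values do not show. Ddit3 (CHOP, chr10:127290774-127296288), the pro-apoptotic factor downstream of ATF4, in wt cells was 352, 514 and 387 untreated and 344, 523 and 497 with LPS. In MyD88ko cells it was 478, 448 and 605 untreated and 447, 503 and 349 with LPS. Its differences were 0.12 ± 0.23 (adjusted p = 0.767), with an interval of -0.36 to 0.59, and -0.24 ± 0.23 (adjusted p = 0.593), so a 2-fold rise lies outside the wt interval.

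Trib3, a pseudokinase induced by ATF4 and CHOP, differed by 0.59 ± 0.26 (adjusted p = 0.118) in wt and 0.32 ± 0.26 (adjusted p = 0.510) in MyD88ko cells. Asns, the asparagine synthetase gene and a standard ATF4 target, differed by 0.38 and 0.21. In wt cells all 6 log2 differences of this arm were positive, from 0.12 to 0.83, with 1 call, and over all 34 members 20 were positive.

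**Figure D4:**
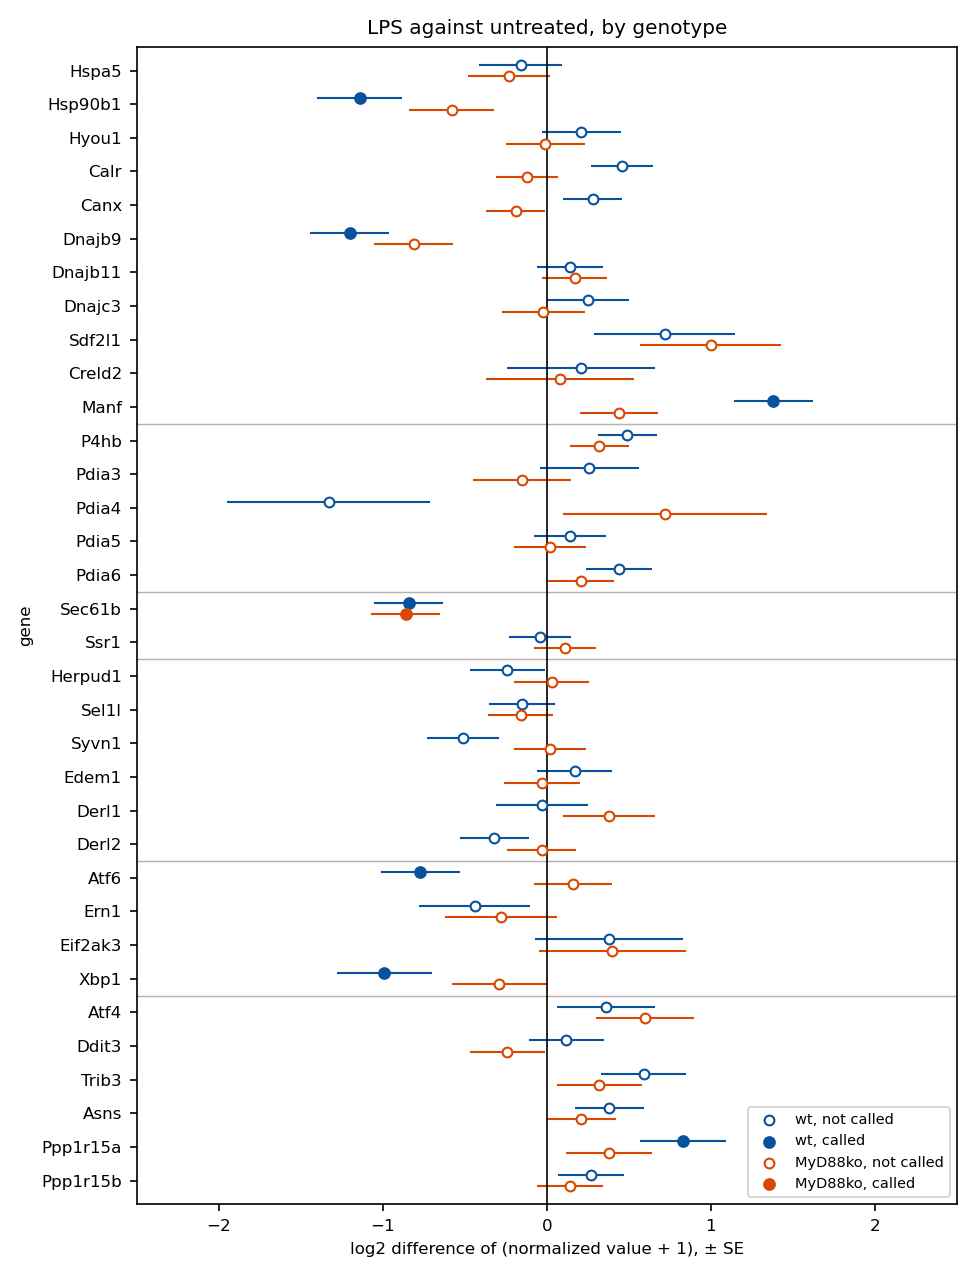
Log2 difference of (normalized value + 1), LPS against untreated, with its SE, for the 34 members in wt (blue) and MyD88ko cells (red). Filled points passed an adjusted p of 0.05: 7 in wt and, among the MyD88ko points, only Sec61b.

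Over the members as a list, 13 had an unadjusted p under 0.05 for LPS in wt cells (38.2%, against 32% of all genes) and 4 in MyD88ko cells (11.8%, against 21% of all genes). The groups did not overlap for 12 members in wt cells (6 higher, 6 lower, 35.3%), against 34.8% of all genes. In MyD88ko cells this held for 8 members (6 higher, 2 lower, 23.5%), against 25.5% of all genes. The 95% interval of the LPS difference lay within 2-fold for 21 members in wt and 26 in MyD88ko cells. Of the 8 members with an ER stress element, 1 (Hsp90b1) was called in wt cells and their median log2 difference was 0.23. Of the 21 with a window but no such element, 1 (Ppp1r15a) was higher and 3 lower, with a median of 0.14. Herpud1 and Dnajb11, which hold ER stress element II, are among these 21. Manf and Atf6, both called in wt cells, had no window and are in neither set. Within-group SDs of the members had a median of 0.279 on the log2 scale, below the 0.403 over all genes tested.

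For the difference between the LPS responses, 0 of 34 members were called, as were 2 genes or 0.0161% of all. At an unadjusted p under 0.05 there were 4 members (Calr, Manf, Pdia4 and Atf6), 11.8% against 9.18% of all genes. For 14 members the interval of this difference lay within 2-fold, and for the other 20 it reached beyond 2-fold in at least 1 direction.

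Between genotypes without LPS, 0 of 34 members were called, against 1.88% of all genes, and the smallest adjusted p was 0.0618. At an unadjusted p under 0.05 there were 8 members (4 higher and 4 lower in MyD88ko cells), 23.5% against 15.5% of all genes. Groups did not overlap for 13 members (38.2%), 9 higher and 4 lower, against 20.4% of all genes. The higher ones were Calr, Canx, P4hb, Pdia5, Herpud1, Edem1, Derl1, Trib3 and Asns, and the lower ones Dnajb9, Sdf2l1, Pdia4 and Syvn1.

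Sdf2l1 had the lowest p of these. Untreated wt cells had 47, 19 and 37 against 11, 10 and 9 in MyD88ko cells. With LPS the values were 53, 39 and 74 against 19, 30 and 16. MyD88ko values were below wt values under both conditions, by -1.60 ± 0.43 (adjusted p = 0.0618) untreated and -1.31 ± 0.43 (adjusted p = 0.174) with LPS. Pdia5 went the other way, 122, 118 and 96 against 172, 179 and 195 untreated, and 124 ± 20.3 against 185 ± 25.7 (SD, n = 3) with LPS. Its differences were 0.70 ± 0.22 (adjusted p = 0.120) and 0.58 ± 0.22 (adjusted p = 0.278), again without overlap. Dnajb9 differed by -0.69 (adjusted p = 0.156) and Xbp1 by -0.73 (adjusted p = 0.212) untreated. Without wt untreated library 2, which has the lowest Sdf2l1 and Xbp1 of its group, both were called in this comparison, Xbp1 at -1.12 (adjusted p = 0.0178).

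With LPS, 0 members were called between genotypes (1.49% of all genes), and the smallest adjusted p was 0.174. At an unadjusted p under 0.05 there were 6 members, 17.6% against 12% of all genes. Groups did not overlap for 5 members (14.7%), against 15.8% of all genes: Pdia5, Derl1, Atf6 and Asns were higher and Sdf2l1 lower in MyD88ko cells. All 6 degradation genes had positive differences, from 0.06 to 0.70, the largest being that of Derl1, with its 1 outlying library. Over all 34 members 17 differences were positive, and among the 11 chaperones and co-chaperones 2 were. The genotype comparisons share their libraries with the LPS comparisons and are not independent of them.

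**Figure D5:**
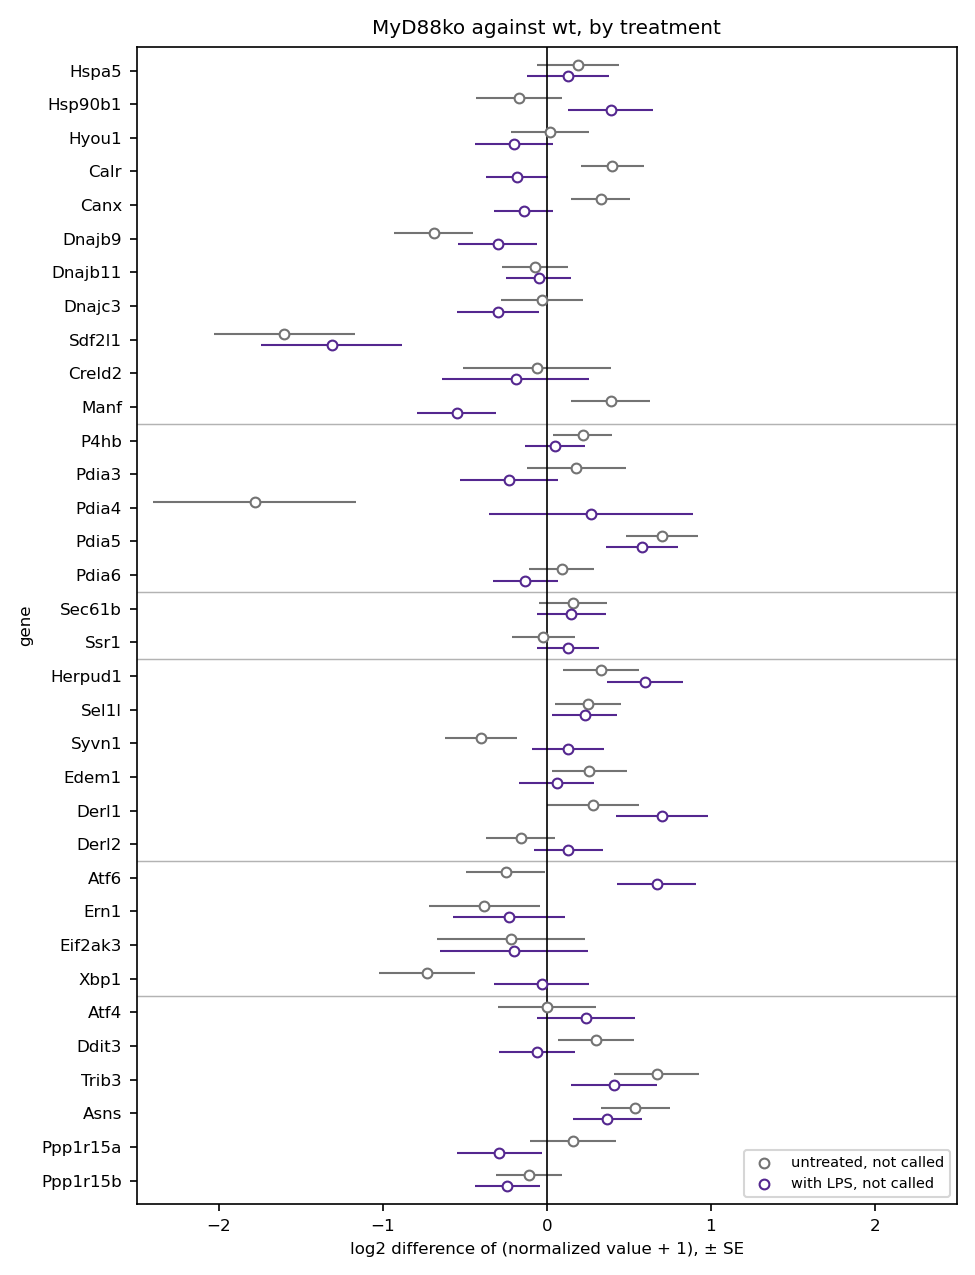
Log2 difference of (normalized value + 1), MyD88ko against wt, with its SE, for the 34 members untreated (grey) and with LPS (purple). All points are open, since 0 of 34 passed an adjusted p of 0.05 in either condition; Sdf2l1 lies at -1.60 and -1.31.

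A further 9 groups of ER and stress genes, 205 genes tested, were read beside the members. LPS raised 28 and lowered 19 of them in wt cells (22.9%) and raised 5 and lowered 6 in MyD88ko cells (5.37%). These shares lie near the 19.2% and 5.98% of all genes called, and the counts by group below are small and were not compared with each other. Of 24 genes of ER import, signal peptidase and translocon, 7 fell and 0 rose in wt cells, and 1 fell in MyD88ko cells. Srp14, a subunit of the signal recognition particle that brings ribosomes to the ER, in wt cells was 2801, 3165 and 3467 untreated and 869, 899 and 1131 with LPS. It fell 3.26-fold in wt, -1.71 ± 0.19 (adjusted p = 8.1e-06), and 2.59-fold in MyD88ko cells, -1.37 ± 0.19 (adjusted p = 0.000286). In wt cells Srp9, its partner, fell 2.02-fold and Spcs3, a signal peptidase subunit, 3.43-fold.

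Of 33 other ER chaperones and oxidoreductases, 3 rose and 2 fell in wt cells, and 3 fell in MyD88ko cells. Calu (calumenin), a calcium-binding ER protein, in wt cells was 22946, 20795 and 24792 untreated and 11512, 9903 and 13261 with LPS. It fell 1.99-fold in wt (adjusted p = 0.0011) and 2.48-fold in MyD88ko cells (adjusted p = 0.000379). Its relative Rcn1 fell 2.12-fold and 1.60-fold. Prdx4, an ER peroxidase, without LPS was 179, 187 and 154 in wt cells against 366, 679 and 465 in MyD88ko cells, 2.81-fold higher in the knockout (adjusted p = 0.00127).

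Few glycosylation and collagen folding genes were called. Counts this small were not compared with the shares of all genes called, 19.2% in wt and 5.98% in MyD88ko cells. Of 20 N-glycosylation genes, 2 rose in wt (Prkcsh, the β subunit of glucosidase II, 1.97-fold, and Dad1, a subunit of oligosaccharyltransferase, 1.75-fold) and 2 in MyD88ko cells (Dad1, 1.71-fold, and Alg2, 3.45-fold). Of 13 collagen folding genes, 2 rose in wt cells: P4ha2, a collagen prolyl hydroxylase, 2.33-fold, and Plod3, a lysyl hydroxylase, 1.64-fold. P4ha3 was 1.97-fold higher in MyD88ko than in wt untreated cells.

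Of 23 other degradation genes, 3 rose and 3 fell in wt cells, among them the ubiquitin-conjugating enzymes Ube2j1, 1.91-fold higher, and Ube2g2, 2.07-fold lower, and the lectin Os9, 2.03-fold higher. In MyD88ko cells 1 rose (Rnf5, 1.88-fold) and 1 fell (Erlin2, 1.91-fold). Of 27 genes of ER exit and KDEL receptors, 4 rose and 3 fell in wt cells. Genes of the COPII coat moved apart, Sar1b 1.96-fold higher and Sec24c 1.89-fold lower, the latter also 1.77-fold lower in MyD88ko cells.

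Of 19 other stress sensors and bZIP factors, 3 rose and 1 fell in wt cells. Bax rose 2.63-fold and Bak1 2.00-fold; their proteins promote apoptosis at mitochondria and also sit at the ER. The third, Creb3, a bZIP factor of the ER membrane, rose 1.68-fold. Of 30 ATF4 and CHOP target genes, 8 rose and 1 fell in wt cells, and 1 rose in MyD88ko cells. The 3 with the lowest p were Cebpd, at 135 ± 51.4 untreated and 616 ± 65.7 with LPS (SD, n = 3), 4.78-fold higher, Cebpb, 3.22-fold higher, and Sesn2, 5.14-fold higher. Cebpd and Cebpb encode C/EBP factors that NF-κB signalling also induces. With LPS, Cebpd was 7.00-fold lower in MyD88ko than in wt cells (adjusted p = 2.81e-05), and without LPS it was already 2.8-fold lower (adjusted p = 0.0103). For the difference between the LPS responses 0 of these 30 genes were called, against 0.0161% of all genes. Stc2, a secreted ATF4 target, was 1564, 121 and 652 in wt untreated libraries, high in the same 2 libraries as Xbp1, and 34 to 48 in MyD88ko untreated libraries. Among 18 aminoacyl-tRNA synthetases, 3 rose and 2 fell in wt cells: Vars was 2.09-fold higher, and Iars and Tars were 1.67-fold and 1.60-fold lower.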

How the data were processed

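Gene values of 12 libraries were read from the authors' 4 deposited tables, where each is a normalized count rounded to whole numbers, treated as a score and not as a raw count. Bowtie2, TopHat2, DESeq and mm10 are named in the submitters' processing notes, without versions. The authors' log2 fold changes and p-values come from the same deposited tables. Libraries in 2 tables had 166719 values in common, of which 0 differed.

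Genes listed in all 12 libraries and averaging 10 or more in any group (12385) were tested on log2(value + 1) with limma 3.58.1 (R 4.3.3), trend and robust empirical Bayes, in 1 fit over 4 groups with 8 residual degrees of freedom. Fold changes are on that scale, which understates changes of low genes. Tests were two-sided, p-values were adjusted by Benjamini-Hochberg over all genes, and the threshold was 0.05. The scripts were tested on simulated data. No count test was run because raw depth is not recorded in the files.

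Members, roles and companion lists were chosen with earlier results of these data known. Values by library (for Dnajb9 in wt LPS and Pdia5 with LPS, the mean and SD) are given for members called in any comparison and for Hspa5, Xbp1, Atf4, Ddit3, Ern1, Eif2ak3 and Atf6, and for other members where their role or a difference without overlap calls for it. From each companion list up to 3 called genes with the lowest p per comparison were taken. RefSeq promoter windows were searched on both strands for the motifs spelled out in the text. Protein sequences were not used here. Alternatives covered scaling, filter, pseudocount, model, replicate block and left-out libraries.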

Additional observations from a re-analysis of the deposited data

How the results depend on the processing

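Among the members called with LPS in wt cells, Manf, Hsp90b1 and Dnajb9 kept their call under 17 of 17 alternatives (highest adjusted p 0.00854, 0.0381 and 0.0327), Sec61b under 16, Ppp1r15a under 12, Xbp1 under 11 and Atf6 under 10; Sec61b in MyD88ko cells kept its call under 12 of 16. For the 12 members followed gene by gene under the alternatives (those called and Hspa5, Atf4, Ddit3, Ern1 and Eif2ak3), 4 of 916 values not called in the main analysis were called. Of the values called in the main analysis or under the alternative, 0 changed sign. Some uncalled values did: Hspa5 between untreated genotypes was 0.19 in the main analysis and -0.18 with quantile normalization. Of the other members, Calr, P4hb and Sdf2l1 gained a call under at least 1 alternative. Without limma's trend, the calls of Atf6 (adjusted p = 0.0649) and Xbp1 (0.0752) in wt cells and of Sec61b in MyD88ko cells (0.0657) were lost, leaving 0 members in MyD88ko cells, with 425 genes called there, 74 between untreated genotypes, 112 between genotypes with LPS and 0 for the difference between responses. In fits restricted to the 2 groups compared, Xbp1 (0.0559) and Ppp1r15a (0.0513) were lost in wt cells. With voom weights 131 genes were called between untreated genotypes and 0 for the difference between responses; with a pseudocount of 0.5 the latter count was also 0, and with quantile normalization 4. Quantile normalization also gave a members' median of -0.113 between genotypes with LPS, and called Calr and P4hb in addition in wt cells. With a mean of at least 50 required, 2 members were called in MyD88ko cells, the second being Dnajb9 (0.0441), P4hb was called in addition in wt cells, the median between untreated genotypes was 0.16 and 0 genes were called for the difference between responses. Without both wt untreated libraries 1 and 3, an arm with 1 library that is assumed to vary like the other groups, 3 members and 969 genes were called with LPS in wt cells, with a members' median of 0.063; Sec61b (0.204), Atf6 (0.204), Xbp1 (0.746) and Ppp1r15a (0.303) were lost, 37 genes were called between untreated genotypes and 14 for the difference between responses.

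Leaving out 1 library at a time, members called ranged from 4 to 6 and genes from 1570 to 1947 for LPS in wt cells (median of members 0.062 to 0.218), and from 0 to 2 and 337 to 652 in MyD88ko cells (0.025 to 0.09). Between untreated genotypes the ranges were 0 to 2 members and 64 to 412 genes (0.039 to 0.132), and between genotypes with LPS 0 members and 85 to 189 genes (-0.03 to 0.052). For the difference between responses they were 0 members and 0 to 44 genes (-0.092 to 0.026). The cause of these changes was not tested.

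With the replicate number as a block, members called were 7 for LPS in wt cells, 2 in MyD88ko cells (Sec61b and Dnajb9, the latter at adjusted p = 0.0407) and 0 in the other comparisons, with 2389, 763, 278, 206 and 2 genes. Same-numbered libraries had correlations of their deviations from -0.114 to 0.171. Between wt untreated and wt LPS they were 0.0589, 0.171 and 0.0583, against at most 0.0435, -0.0709 and 0.0178 with other numbers. In every other pair of groups, some same-numbered libraries fell below another number. Correlations this small cannot settle whether the libraries were paired. Raw depth is unknown, so no counting error can be given, and values under about 50, such as those of Pdia4, Eif2ak3 and Sdf2l1, are the least precise.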
